A study of Mus musculus with 4 samples.

Results

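Polycomb repressive complex 2 (PRC2) is represented here by 10 genes, chosen by symbol with earlier results of these data known, Ezh1, Ezh2, Eed, Suz12, Jarid2, Mtf2, Phf19, Aebp2, Rbbp4 and Rbbp7. All 10 were among the 13881 genes of the deposited table. RNA was sequenced from dividing neural progenitor cells of C57bl/6 mice, taken from the embryonic day 14 forebrain and expanded in medium with 2% B27 and with FGF-2 and EGF (20 ng/ml of either). In 2 shRybp libraries the cells carried, by lentiviral infection, an shRNA that targets Rybp, a subunit of the partner complex PRC1. In 2 control libraries the label gives only "ctrl", and what vector that group received is not stated. Whether the 2 libraries of a group came from separate cultures, animals or infections is not stated, so the p-values below measure the spread between libraries, which may be technical.

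PRC2 places methyl groups on histone H3 at the residue marked in H3K27me3, a modification that accompanies gene silencing. Its enzyme is Ezh2 or the related Ezh1, which is active only when bound to Eed and Suz12, with Rbbp4 or Rbbp7 as histone-binding subunit. Accessory proteins sort this core into a form with Mtf2, Phf19 or Phf1 and another with Jarid2 and Aebp2. In the developing forebrain PRC2 is known for restraining the timing of neuron and glia production by progenitors. Transcript levels were measured here, and neither the proteins nor the histone mark.

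Total counts were between 14355308 and 17598873 per library. Rybp, the targeted gene, had FPKM values (counts scaled by exon length and by library size) of 4.43 and 3.95 in control and 3.01 and 2.66 in shRybp. The shRybp libraries held 65.8% of the control level (log2 change -0.60, SE 0.12, edgeR adjusted p = 0.0017). These libraries compare cells that kept most of the transcript. All 12 neural progenitor markers were listed, and so were all 9 astrocyte, all 9 oligodendrocyte lineage and 7 of 9 neuron markers. Being listed thus does not tell progenitors from glia or neurons. Of 4 fibroblast and 5 red cell markers 0 were among the listed genes, each of which has at least 40 counts over the libraries. The 2 of 7 microglia markers that were listed summed to 0.17 to 0.97 FPKM per library. The 2 of 5 vascular markers summed to 0.34 to 0.52 FPKM.

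Of the 10 PRC2 genes 3 rose in shRybp, the core genes Suz12 and Eed and the histone-binding subunit gene Rbbp7, and 0 fell. A gene is said to rise or fall where its edgeR quasi-likelihood test had an adjusted p under 0.05 over the 12062 genes tested. Over all tested genes 16.3% rose and 16.7% fell. The median log2 fold change (log2 change below, shRybp over control) was 0.08 for the 10 genes and 0.00 for all genes tested. FPKM of the groups did not overlap for 8 of the 10 genes, 6 higher and 2 lower in shRybp. Over all tested genes 38.5% were higher and 29.0% lower without overlap, 67.5% together. The changes were small, and that of Rbbp7, the biggest of the 10, was larger in size than that of 80.2% of the genes tested. In bulk RNA, fewer cells of a type and less RNA per cell cannot be told apart.

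The bases upstream of the start sites of the 3 genes that rose are shown, with those of Rbbp4, the close relative of Rbbp7 that did not pass the test. Whether the 3 genes share a regulator was not tested. The sequences are RefSeq's for GRCm38.p6, the assembly also named mm10, and end at the base before the start site or the first annotated exon. They lie at chr11:79992856-79993105 on the plus strand, chr7:89980984-89981226 on the minus strand, chrX:162760122-162760371 on the plus strand and chr4:129335371-129335620 on the minus strand. Capitals mark the letters CCAAT (the CCAAT box, bound by NF-Y) and TTTGAA (the cell cycle homology region, bound by the MuvB complex) on either strand, so that ATTGG and TTCAAA are the reverse matches.
Suz12: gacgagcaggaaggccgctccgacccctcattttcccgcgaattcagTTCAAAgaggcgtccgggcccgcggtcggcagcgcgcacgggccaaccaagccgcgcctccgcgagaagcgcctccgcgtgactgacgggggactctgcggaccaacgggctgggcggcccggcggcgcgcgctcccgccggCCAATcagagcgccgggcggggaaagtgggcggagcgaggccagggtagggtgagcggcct
Eed: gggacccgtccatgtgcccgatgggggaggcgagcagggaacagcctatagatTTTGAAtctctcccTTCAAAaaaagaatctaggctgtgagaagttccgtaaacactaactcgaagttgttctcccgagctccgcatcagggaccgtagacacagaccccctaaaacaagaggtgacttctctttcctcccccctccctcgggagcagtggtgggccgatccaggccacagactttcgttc
Rbbp7: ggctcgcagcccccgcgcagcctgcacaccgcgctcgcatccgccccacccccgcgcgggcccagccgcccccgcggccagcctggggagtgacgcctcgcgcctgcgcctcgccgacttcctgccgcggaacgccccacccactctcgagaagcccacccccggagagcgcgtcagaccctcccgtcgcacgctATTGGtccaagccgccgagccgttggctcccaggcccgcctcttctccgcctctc
Rbbp4: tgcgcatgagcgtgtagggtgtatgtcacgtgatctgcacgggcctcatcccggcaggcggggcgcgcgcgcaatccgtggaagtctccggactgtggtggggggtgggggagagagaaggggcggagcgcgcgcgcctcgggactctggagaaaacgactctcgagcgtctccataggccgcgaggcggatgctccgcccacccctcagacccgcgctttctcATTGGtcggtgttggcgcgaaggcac
Neither marked motif was found upstream of all 3 genes that rose. Suz12 has CCAAT at position -61 from the start site and a reverse TTTGAA at -203. Eed has TTTGAA at -197 forward and -183 reverse, and no CCAAT. Its printed sequence stops at the first annotated exon, 7 bases short of the start site from which these positions are counted. Rbbp7 and Rbbp4 each have 1 reverse CCAAT, at -55 and -26. Over the 250 bases upstream of 32817 RefSeq start sites, 33.8% hold CCAAT and 16.0% hold TTTGAA. Of the 14 start sites listed for the 10 genes, 7 hold CCAAT and 4 hold TTTGAA. Those of Mtf2 and Aebp2 with either motif lie inside the gene span. The shares are not matched for base content. Median GC was 52.4% over all windows, against 73.6% for Suz12, 54.4% for Eed, 76.4% for Rbbp7 and 67.6% for Rbbp4. The letters TTTCGCGC or TTTGGCGC, forms of the E2F site, were in 0 of the 14 windows of the 10 genes and in 0.66% of all windows, on either strand. The E2F core letters GGCGGGAA were likewise in 0 of the 14 windows and in 1.85% of all windows. The form TTTCCCGC was not counted. The Suz12 sequence above holds it, and the window of Phf19, which did not pass the test, holds its reverse. These matches describe letters and are no evidence of binding.

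The catalytic subunits did not pass the test. Ezh2, the methyltransferase of dividing cells (ENSMUSG00000029687, mm10 chromosome 6, 47530139 to 47595341, minus strand), had 26.4 and 24.2 FPKM in control and 28.2 and 27.2 FPKM in shRybp, from 2583 to 3104 counts. Both shRybp values were above both controls, by less than the gap between the controls for the nearest pair. The log2 change was 0.09 (SE 0.07, 95% interval -0.05 to 0.24, edgeR adjusted p = 0.30), an interval from 96.7% to 118% of the control level. Ezh1, the weaker enzyme that persists in cells that have stopped dividing (ENSMUSG00000006920, chromosome 11, 101191115 to 101226463, minus strand), was the lowest of the 10 genes at 1.70 and 1.67 FPKM in control and 1.55 and 1.49 in shRybp. Its 166 to 223 counts gave the widest interval of the 10, with a log2 change of -0.19 (SE 0.12, 95% interval -0.46 to 0.08, edgeR adjusted p = 0.27). The Ezh1 groups did not overlap, and both shRybp libraries were lower.

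The core partners of the enzyme were higher. Suz12, which holds the complex together (ENSMUSG00000017548, chromosome 11, 79993106 to 80034123, plus strand), had 20.5 and 18.96 FPKM in control and 26.0 and 24.6 FPKM in shRybp. Both shRybp libraries stood above both controls, from 1497 to 1995 counts. Suz12 rose to 125% of control (log2 change 0.32, SE 0.07, 95% interval 0.17 to 0.47, edgeR adjusted p = 0.0035), a call kept under each of 13 alternative settings. Eed, which binds the finished mark and stimulates the enzyme (ENSMUSG00000030619, chromosome 7, 89954654 to 89980983, minus strand), had 10.4 and 9.73 FPKM in control and 12.1 and 12.8 FPKM in shRybp. The groups were again apart, and Eed rose to 121% of control (log2 change 0.27, SE 0.09, 95% interval 0.08 to 0.46, edgeR adjusted p = 0.029). The Eed call was lost without control replicate 2 (adjusted p = 0.16), without shRybp replicate 2 (adjusted p = 0.12) and in DESeq2 (adjusted p = 0.089). The adjusted p of Eed ranged from 0.012 to 0.16 over the 13 alternatives.

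The histone-binding subunits, which also serve other chromatin complexes, were the highest of the 10 genes and only one of them passed. Rbbp7 (ENSMUSG00000031353, chromosome X, 162760402 to 162779092, plus strand) had 74.3 and 72.5 FPKM in control and 101 and 96.9 FPKM in shRybp, from 3366 to 4630 counts. The gap between the groups was wider than the gap between libraries of either group. Rbbp7 rose to 131% of control (log2 change 0.39, SE 0.06, 95% interval 0.26 to 0.52, edgeR adjusted p = 0.00034), with a highest adjusted p of 0.0041 over the 13 alternatives. Rbbp4 (ENSMUSG00000057236, chromosome 4, 129307100 to 129335370, minus strand) had 39.9 and 39.0 FPKM in control and 43.0 and 41.6 FPKM in shRybp. Both Rbbp4 values of shRybp were higher than the controls, but the log2 change was 0.07 (SE 0.06, 95% interval -0.06 to 0.20, edgeR adjusted p = 0.44). That interval ends at 115% of control, below the 119.96% at which the Rbbp7 interval begins.

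Reads of Rbbp7 can be shared in part. Of its 50-base transcript words in GENCODE M21, 6.97% also occur in the processed pseudogene Gm6382, which had 318 counts over the 4 libraries and a log2 change of 0.48 (edgeR adjusted p = 0.088). The exons of Txlng overlap 174 bases of Rbbp7 on the opposite strand. Strand use in counting is not stated, and Txlng had 1164 counts and a log2 change of -0.08 (edgeR adjusted p = 0.58). Likewise the exons of Tmed5 cover 395 bases of Mtf2, those of E230029C05Rik cover 261 bases of Eed, and those of Sync cover 782 bases of Rbbp4, each on the opposite strand. Exons of Gm26563 cover 178 bases of Suz12 and those of Gm26625 cover 174 bases of Ezh2, also on the opposite strand. Neither Gm26563 nor Gm26625 is among the listed genes. E230029C05Rik had 72 counts over the 4 libraries, and its fold change was not tested.

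The accessory genes of the form that holds Polycomb-like proteins did not pass the test. Mtf2, which helps PRC2 to unmethylated CpG islands (ENSMUSG00000029267, chromosome 5, 108065674 to 108109004, plus strand), had 9.54 and 9.32 FPKM in control and 10.8 and 10.4 FPKM in shRybp. The Mtf2 groups did not overlap (log2 change 0.13, SE 0.08, 95% interval -0.04 to 0.30, edgeR adjusted p = 0.22). Phf19, a Polycomb-like protein of the same family (ENSMUSG00000026873, chromosome 2, 34893757 to 34914026, minus strand), had 5.41 and 5.27 FPKM in control and 5.08 and 5.30 FPKM in shRybp. Here shRybp 2 lay between the controls (log2 change -0.08, 95% interval -0.26 to 0.11, edgeR adjusted p = 0.53).

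The genes of the Jarid2 and Aebp2 form also stayed below the threshold. Jarid2, a non-catalytic relative of histone demethylases that recruits PRC2 (ENSMUSG00000038518, chromosome 13, 44729474 to 44921643, plus strand), had 8.44 and 8.97 FPKM in control and 8.07 and 7.84 FPKM in shRybp. Both shRybp libraries were lower, with a log2 change of -0.17 (SE 0.07, 95% interval -0.32 to -0.02). The unadjusted p was 0.034 and the edgeR adjusted p was 0.086. Aebp2, a zinc finger protein that stabilizes the complex (ENSMUSG00000030232, chromosome 6, 140622663 to 140678472, plus strand), had 7.04 and 6.46 FPKM in control and 7.23 and 6.92 FPKM in shRybp. The Aebp2 groups overlapped, and the estimate was near 0 (log2 change 0.03, 95% interval -0.14 to 0.20, edgeR adjusted p = 0.80).

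**Figure D1:**
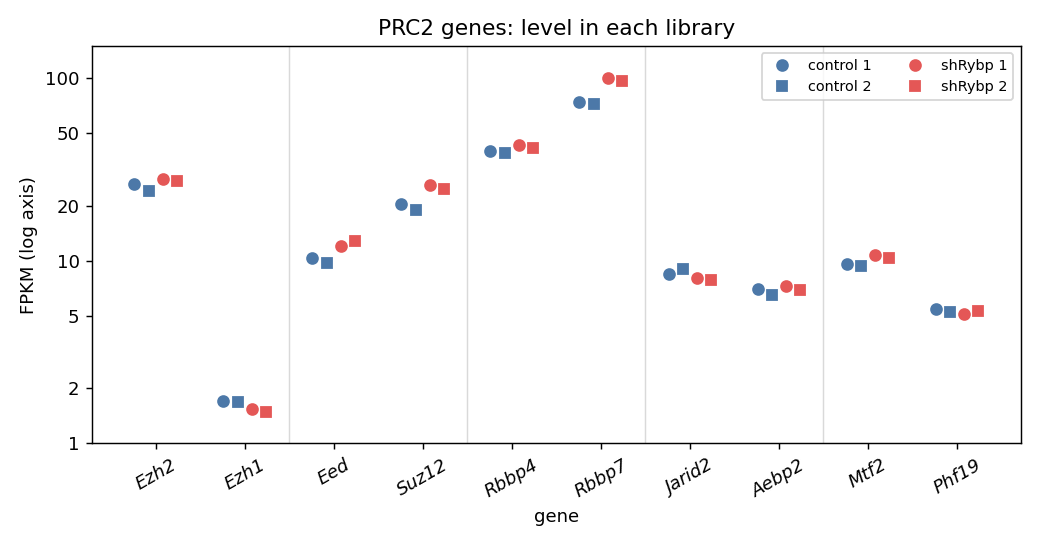
FPKM on a log axis of each PRC2 gene in the 4 libraries, blue for control and red for shRybp, circles for replicate 1 and squares for replicate 2. Rbbp7 is highest in every library and Ezh1 lowest, and the red and blue points are furthest apart for Rbbp7, Suz12 and Eed.

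**Figure D2:**
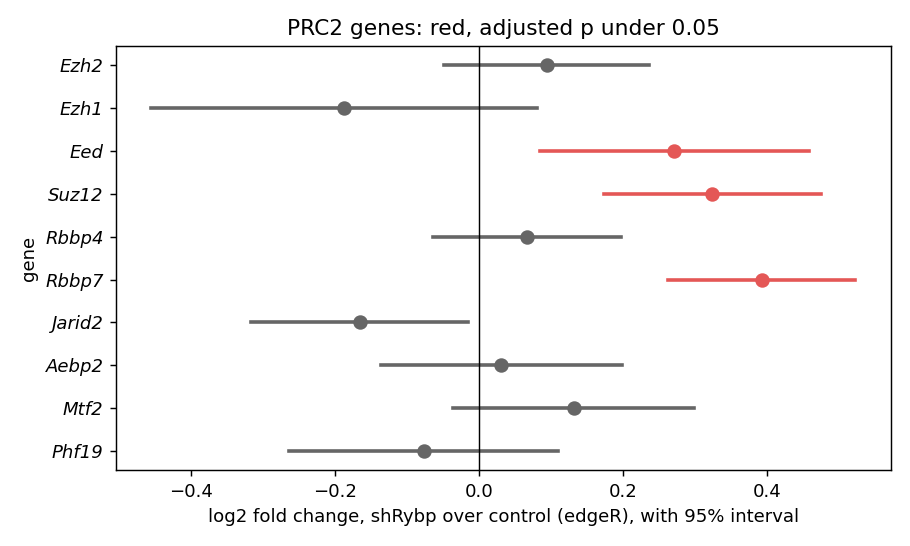
The log2 change of shRybp over control for each PRC2 gene as a point with its 95% interval from edgeR. The intervals of Rbbp7 (0.26 to 0.52), Suz12 (0.17 to 0.47) and Eed (0.08 to 0.46), in red, belong to the genes past the threshold.

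In order of mean control FPKM the genes were Rbbp7, Rbbp4, Ezh2, Suz12, Eed, Mtf2, Jarid2, Aebp2, Phf19 and Ezh1, from 73.4 ± 1.31 (SD, n = 2) down to 1.69 ± 0.02 (SD, n = 2). The ranges of neighbours in this order did not overlap within control or within shRybp, although Eed exceeded Mtf2 by only 1.07-fold and Mtf2 exceeded Jarid2 by 1.08-fold in control. The order depends on gene length. The lengths behind the deposited FPKM matched the union of all GENCODE M21 exons up to a common factor, within 0.5% for 98.3% of the 13864 genes compared. That union is 2909 bases for Rbbp7 and 8744 for Rbbp4, so Rbbp4 had more counts than Rbbp7 in every library but the lower FPKM. With the longest APPRIS principal transcript (2244 and 4407 bases) as the length, Rbbp7 exceeded Rbbp4 in control by 0.28 on the log2 scale in place of 0.90. Rbbp7, Rbbp4, Ezh2, Suz12 and Eed kept the first places on that scale, and Aebp2 moved above Jarid2 and Mtf2, which changed places. Length does not enter the fold changes between groups.

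Ratios of related genes within a library show how the members moved against each other, and are free of library scaling. Ezh2 exceeded Ezh1 by 15.5 and 14.5 in control and by 18.2 and 18.3 in shRybp, as ratios of FPKM. Ezh2 thus held 93.9% and 93.5% of the summed FPKM of both enzymes in control, and 94.8% in each shRybp library. Rbbp7 over Rbbp4 was 1.86 in both controls and 2.34 and 2.33 in shRybp. The shift was 0.33 on the log2 scale, where counting error alone gives a single library's ratio an SD of 0.028 to 0.032. The replicates agreed more closely than that error, so their spread is no measure of precision here. Across genes, libraries of a group differed by more than counting error (chi-square per degree of freedom 5.18 in control and 4.37 in shRybp). The counting SD is thus a lower bound. For Ezh2 over Ezh1 the shift was 0.28 and the counting SD 0.10 to 0.12. Mtf2 over Phf19 was 1.76 and 1.77 in control and 2.13 and 1.96 in shRybp, a shift of 0.21 (counting SD 0.081 to 0.089). Jarid2 over Aebp2 was 1.20 and 1.39 in control and 1.11 and 1.13 in shRybp, a shift of -0.20 (counting SD 0.056 to 0.062), which was -0.09 without control replicate 2. It was the only pair of the 4 whose pooled SD between libraries of a group (0.11) exceeded the counting SD. For all 4 pairs the groups did not overlap. The share of other gene pairs without overlap was not counted, and of single tested genes 67.5% did not overlap. The two-sided exact permutation p was 0.333 for each pair, also after Benjamini-Hochberg adjustment over the 4, and 2 libraries against 2 cannot give a smaller value.

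**Figure D3:**
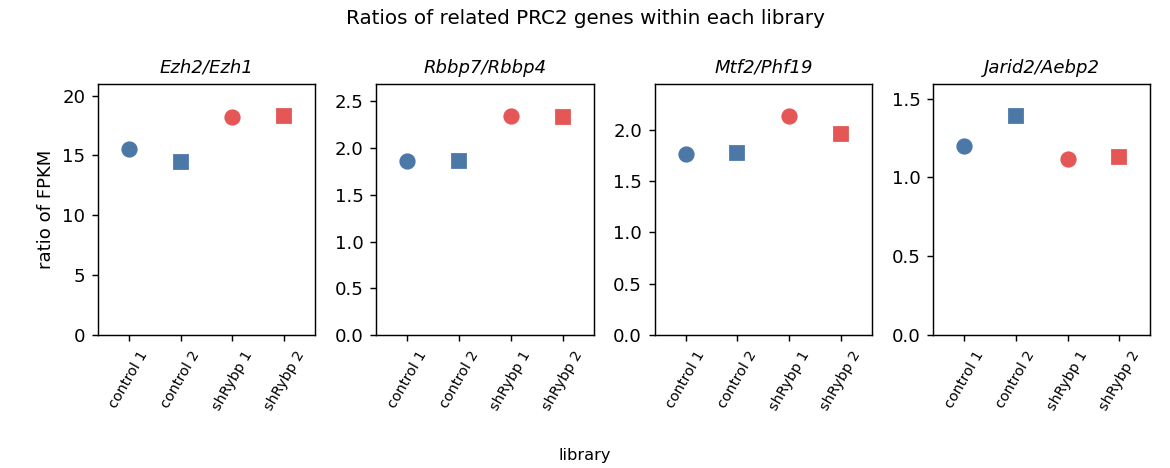
The ratio of FPKM of 4 pairs of PRC2 genes within each library, each panel with an axis from 0, blue for control and red for shRybp. Rbbp7 over Rbbp4 is 1.86 in both controls and 2.34 and 2.33 in shRybp, and only Jarid2 over Aebp2 is lower in shRybp.

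Other accessory genes of PRC2 were low. None of the 4 in the table passed, and the interval of each included 0. Phf1, the third Polycomb-like gene, had 1.87 ± 0.30 FPKM in control and 1.91 ± 0.27 in shRybp (SD, n = 2; log2 change -0.00, 95% interval -0.39 to 0.39, edgeR adjusted p = 1.00). Epop (log2 change 0.07), Lcor (0.06) and Lcorl (-0.08), which encode further proteins that bind the core, had edgeR adjusted p-values of 0.86, 0.68 and 0.49. Cuta on the opposite strand covers 39.3% of the exon bases of Phf1, so the value of Phf1 is uncertain. Ezhip, an inhibitor of the enzyme, was not analysed here.

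The enzymes that remove the mark did not pass either. Kdm6a had 5.29 ± 0.05 FPKM in control and 5.16 ± 0.13 in shRybp (SD, n = 2; log2 change -0.07, edgeR adjusted p = 0.55). Kdm6b had 9.36 ± 1.39 and 9.03 ± 0.95 FPKM (SD, n = 2; log2 change -0.08, edgeR adjusted p = 0.56). Uty, the Y-linked relative of Kdm6a with weak activity, had 3.63 and 3.69 FPKM in control and 3.41 and 3.06 in shRybp (log2 change -0.22, edgeR adjusted p = 0.085). Of 7 tested genes of PR-DUB, the complex that removes the PRC1 mark, 0 rose and 2 fell, Mbd5 (log2 change -0.28) and Foxk1 (-0.29).

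Rbbp4 and Rbbp7 are also subunits of complexes that deacetylate, assemble and remodel chromatin. Of 12 tested NuRD genes 3 rose and 0 fell, with a median log2 change of 0.04. Those that rose were the deacetylase gene Hdac1 (0.25), Mta1 (0.32) and Gatad2a (0.28). Of 11 Sin3 complex genes 0 rose and Arid4b fell (-0.20, edgeR adjusted p = 0.049). Of 5 genes of CAF-1, HAT1 and NURF, 3 rose and 1 fell, with a median of 0.33. Both CAF-1 genes, whose products place histones on newly copied DNA with Rbbp4, were among those that rose, Chaf1b from 8.61 ± 0.14 to 12.8 ± 0.30 FPKM (SD, n = 2; log2 change 0.54, edgeR adjusted p = 0.0003) and Chaf1a by 0.47. Chaf1a is uncertain, since Ubxn6 covers 52.5% of its exon bases on the opposite strand. Hat1, the histone acetyltransferase that works with Rbbp7, rose by 0.33 on the log2 scale. The NURF ATPase gene Smarca1 fell from 2.21 ± 0.21 to 1.25 ± 0.09 FPKM (SD, n = 2; log2 change -0.86, edgeR adjusted p = 0.00058). Of 11 genes of MuvB and DREAM, the cell cycle regulators that contain Rbbp4, 3 rose and 0 fell, Rbl1 (0.51), Mybl2 (0.43) and E2f4 (0.39).

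Genes of the cell cycle were higher in the same libraries, and several PRC2 genes are known as E2F targets. Of 33 S phase genes 28 rose and 0 fell, with a median log2 change of 0.42. Their summed FPKM was 867 and 823 in control and 1204 and 1173 in shRybp. Uhrf1 (0.74), Mcm5 (0.72), Rrm2 (0.66) and Mcm2 (0.65) had the smallest p-values of that list. Among 24 G2 and M phase genes 16 rose and 0 fell, with a median of 0.31, with the smallest p-values for Plk1 (0.65), Kif20a (0.52), Anln (0.48) and Cdc20 (0.46). Of the exon bases of Kif20a 29.3% lie under Cdc23 on the opposite strand, so its value is uncertain. The summed FPKM of the 10 PRC2 genes was 204 and 196 in control and 243 and 235 in shRybp. The part of the cell cycle genes' difference in the rise of Suz12, Eed and Rbbp7 was not tested.

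Among the E2F genes, the activators E2f1 (log2 change 0.43, edgeR adjusted p = 0.0022) and E2f2 (0.68, edgeR adjusted p = 0.00028) and the repressor E2f8 (0.31, edgeR adjusted p = 0.011) rose. E2f2 had 3.78 and 4.28 FPKM in control and 6.11 and 7.11 in shRybp. Rb1, the pocket protein that restrains the activators, fell from 15.7 ± 0.49 to 12.6 ± 0.05 FPKM (SD, n = 2; log2 change -0.35, edgeR adjusted p = 0.0019). On the opposite strand, exons of Rcbtb2 cover 488 exon bases of Rb1 and those of Lpar6 cover 408. Reads there cannot be told apart without strand. Rcbtb2 had a log2 change of -0.30 (edgeR adjusted p = 0.011) and Lpar6 of -0.04 (edgeR adjusted p = 0.82). The other 3 genes of the E2F list did not pass, E2f3 (0.07), E2f6 (0.11) and E2f7 (-0.02). E2f6 encodes the factor that carries a variant PRC1 to its targets.

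**Figure D4:**
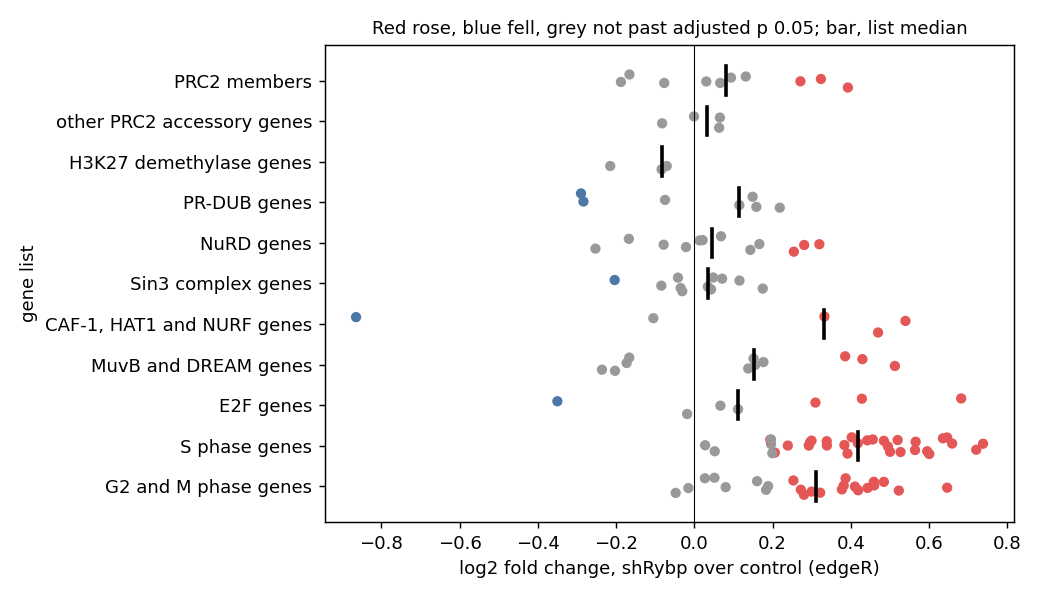
The log2 change of shRybp over control for each tested gene of 11 lists, as points scattered in height within a list, with the list median as a bar. The median of the PRC2 genes is 0.08, and those of the S phase and of the G2 and M phase genes are 0.42 and 0.31.

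Genes that PRC2 is known to hold silent outside their lineage were mostly outside the listed genes and were not analysed here. Of 39 Hox genes 0 were listed. Of 37 regulators of other lineages and cell cycle inhibitors at the Cdkn2 locus 5 were listed and 4 were tested. Cdkn2a, a classical PRC2 target, had 14.2 and 15.3 FPKM in control and 16.3 and 17.2 in shRybp (log2 change 0.15, 95% interval -0.07 to 0.37, edgeR adjusted p = 0.28). Its neighbour Cdkn2b fell (-0.59, edgeR adjusted p = 0.019), Eya1 fell (-0.72, edgeR adjusted p = 4.1e-05) and Prrx1 rose (0.45, edgeR adjusted p = 0.00043).

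Markers of cell types also moved between the groups. Of 9 astrocyte markers 9 fell, with summed FPKM of 629 and 642 in control and 249 and 270 in shRybp, led by p-value by Apoe (-2.61), Gfap (-1.83), Slc1a2 (-1.11) and Aldoc (-1.01). Of 9 oligodendrocyte lineage markers 4 fell, Gpr17 (-2.51), Sox10 (-1.99), Pdgfra (-1.26) and Cnp (-0.80), and 0 rose. Of 6 tested neuron markers 3 fell, Dcx (-1.22), Mapt (-1.05) and Snap25 (-0.46), and Syt1 rose (0.72). Exons of Gpr17 share 188 bases with Lims2, and those of Cnp share 154 bases with Dnajc7, on opposite strands, and reads there cannot be told apart without strand. Of 11 tested neural progenitor markers 4 fell and 2 rose, with Hes5 (-1.79), Fabp7 (-0.61), Sox2 (-0.46) and Nes (0.67) first by p-value. The part of these differences in the values of the PRC2 genes was not tested.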

How the data were processed

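Per the file headers, the authors deposited raw counts, not normalized, and FPKM values derived from them. The submitters' processing notes name mm10 as the build. Aligner, counting program and strand setting are not stated. The table lists 13881 genes, each with at least 40 counts over the 4 libraries, and 21 symbols that a spreadsheet had turned into dates were restored from gene IDs. Groups follow the sample titles, and columns were matched to them by name. Counts of 12062 genes, those whose mean FPKM reached 1, were fitted with edgeR 4.0.16 in R 4.3.3 (TMM, quasi-likelihood, two-sided), with Benjamini-Hochberg adjustment over all of them and a threshold of 0.05. On simulated data the fit recovered 51 of 67 genes changed 1.5-fold and 63 of 67 changed 2-fold, and called 12 unchanged genes. Folds below 1.5, where the estimates of all 10 PRC2 genes lie, were not simulated. SE is the absolute log2 fold change over the square root of F, and intervals are 95%. The fit takes each gene's spread partly from other genes (median total degrees of freedom 12.5). SE, intervals and p-values thus do not rest on the gene's own 4 values alone. Alternatives used DESeq2 1.42.0, limma 3.58.1, other scalings and filters, and left out each library. The PRC2 genes and all gene lists were chosen with earlier results of these data known. Named genes are the members, Rybp, all measured genes of the accessory, demethylase and E2F lists, all tested silenced genes, and up to 4 called genes with the smallest p of each other list. No gene was ranked by likeness of pattern, since 4 libraries give no usable correlation.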

Additional observations from a re-analysis of the deposited data

How the results depend on the processing

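Under the 13 alternatives the calls of Rbbp7 and Suz12 were kept in every one, and Ezh2, Mtf2, Phf19 and Rbbp4 kept their direction and did not pass in any. Ezh1 was not tested with the filter at a mean FPKM of 5 and kept its side in the other 12. The call of Eed was lost in 3. The replicate numbers are shared by the groups in the labels, but no label says that a number marks a shared culture or day, and the deviations of same-numbered libraries correlated at 0.13. With the replicate block 1 PRC2 gene fell, Jarid2 (log2 fold change -0.17, edgeR adjusted p = 0.023), against 0 without it, and the genes that rose and fell over the whole table numbered 2676 and 2652. The pair ratios have the same mean differences within replicate numbers by construction (0.28 for Ezh2 over Ezh1 with the replicate block). Aebp2 ranged from -0.041 to 0.10 when libraries were left out, turning negative without control replicate 2 (-0.041) and without shRybp replicate 1 (-0.0043). Leaving out 1 library at a time gave 1296 to 1640 genes that rose, the fewest without shRybp replicate 2, against 1970 with all libraries. The same settings gave 2 or 3 PRC2 genes that rose and 0 that fell. The causes were not tested. Rises and falls over all genes numbered 2361 and 1718 with library totals, and 1982 and 1442 in limma on log2(FPKM + 1). Depth limits Ezh1 most, with 166 to 223 counts per library.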

Other observations

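The core genes were also set against their enzyme, in 2 pairs chosen after the values were seen. Suz12 over Ezh2 was 0.776 and 0.783 in control and 0.924 and 0.903 in shRybp as ratios of FPKM, a shift of 0.23 on the log2 scale, where counting error alone gives a single library's ratio an SD of 0.042 to 0.047. Eed over Ezh2 was 0.395 and 0.402 in control and 0.430 and 0.471 in shRybp, a shift of 0.18 (counting SD 0.057 to 0.066). As above, the counting SD is a lower bound on the error. The groups did not overlap in either pair, but neither did they for 67.5% of single tested genes. Other gene pairs were not counted. With 2 libraries against 2 the two-sided exact permutation p was 0.333 for both pairs, the smallest possible. No 50-base word of the annotated transcripts was shared between any of the 10 PRC2 genes, Rbbp4 and Rbbp7 or Ezh1 and Ezh2 included. The largest share of words found in other genes was 17.2%, for Rbbp4, mostly in the opposite-strand genes Gm26722 (750 words) and Sync (687 words).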
